A study of Mus musculus with 1298 samples.

Results

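Differentiating myocytes descended from Pax7-expressing cells of the mouse embryo were chosen by their transcripts in single-cell RNA-seq data. Every cell was scored on 9 panels of 4 genes, a score being the mean over a panel of log2(1 + 10000 × count / cell total). A cell was called a myocyte where the panel of Myog, Mylpf, Tnni1 and Chrna1 scored highest and reached 0.7. Of 3852 kept cells, 7.4% were myocytes, namely 7.29% of the 2921 cells from 10x libraries and 72 of the 931 cells from Smart-seq2 plates (7.73%). The cells were thus selected on the measured panel genes, whose levels are given as a description.

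The embryos carried a tamoxifen-inducible Cre at the Pax7 locus and a Cre-activated yellow fluorescent reporter (Pax7CreER:R26R-stop-EYFP). Pregnant dams received tamoxifen at 75 µg/g body weight at E9.5, and embryos were harvested at E12.5, E14.5 or E16.5. Heads, limbs and viscera were removed, several embryos were pooled and YFP+ cells were sorted by flow cytometry, so all groups shared the genotype, the tamoxifen and the sort. Tissue was digested with Collagenase II, to which Dispase was added only from E14.5 on, so that digestion and harvest day cannot be told apart in comparisons with E12.5. Each day was profiled by a 3′ droplet assay that counts unique molecular identifiers (10x, UMIs) and by full-length plate-based Smart-seq2, giving 6 pools of 1 platform and 1 day each. There was no wild-type or untreated arm, and the reporter marks any cell whose ancestor expressed Pax7 around the injection, neurons and mesenchymal cells included.

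Skeletal muscle differentiation is driven by basic helix-loop-helix factors that bind E-boxes. Myf5 and Myod1 act in progenitors and myoblasts, and Myog (myogenin) switches on as cells leave the cell cycle and begin to make sarcomere proteins. Mononucleated myocytes then fuse into multinucleated fibres through the membrane proteins myomaker (Mymk) and myomixer (Mymx), first as primary fibres in the embryo and later as secondary fibres in the fetus. Mylpf encodes the regulatory light chain of fast myosin, Tnni1 encodes slow skeletal troponin I and Chrna1 encodes the alpha subunit of the muscle acetylcholine receptor.

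From the earliest to the latest day the Smart-seq2 pools held 15, 34 and 23 myocytes. The 10x pools held 53 at E12.5 and 48 at E16.5, and at E14.5 the myocytes were 11.6% of 964 kept cells. Median totals per myocyte were 2606, 7192 and 1597.5 UMIs on 10x and 252955, 720790 and 841728 estimated counts on Smart-seq2, so depth differed between days on both platforms. Counts were summed over the myocytes of each pool, and levels are given as CPM, the share of such a sum over the 15147 genes common to both tables, scaled to a total of 1000000. One UMI was worth 6.30, 1.23 and 11.4 CPM in the E12.5, E14.5 and E16.5 10x sums, and the deepest cell held 22.2% of all counts of the E12.5 Smart-seq2 sum against 1.59% to 10.1% in the other 5 sums. Of the 2921 kept 10x cells, 3 barcodes occurred in more than 1 library, none of them a myocyte. Every group of Smart-seq2 cells with a common title prefix, such as E12.5b1, held cells of 1 day only. The titles do not say what these groups are, and group and day cannot be told apart. Cells of a pool are not replicates, and the p-values below measure the spread between the sums of both platforms.

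The promoters of the 4 defining genes are shown because E-boxes are the sites that myogenic factors recognise. The sequences are the 250 bases before the first listed RefSeq start site of each gene (build GRCm38.p6), with matches to the E-box CANNTG in capitals, read on either strand since the motif is its own reverse complement.
Myog, chr1:134289754-134290003, + strand: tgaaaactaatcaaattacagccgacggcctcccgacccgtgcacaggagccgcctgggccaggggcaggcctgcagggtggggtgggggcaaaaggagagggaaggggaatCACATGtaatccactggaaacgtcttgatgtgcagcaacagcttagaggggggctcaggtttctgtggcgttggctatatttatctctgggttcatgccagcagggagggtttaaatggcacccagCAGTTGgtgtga
Mylpf, chr7:127211358-127211607, + strand: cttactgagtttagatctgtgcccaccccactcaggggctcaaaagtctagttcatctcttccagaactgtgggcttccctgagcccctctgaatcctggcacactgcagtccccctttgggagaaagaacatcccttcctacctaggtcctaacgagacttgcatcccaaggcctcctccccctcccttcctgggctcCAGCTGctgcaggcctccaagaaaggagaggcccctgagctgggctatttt
Tnni1, chr1:135799171-135799420, + strand: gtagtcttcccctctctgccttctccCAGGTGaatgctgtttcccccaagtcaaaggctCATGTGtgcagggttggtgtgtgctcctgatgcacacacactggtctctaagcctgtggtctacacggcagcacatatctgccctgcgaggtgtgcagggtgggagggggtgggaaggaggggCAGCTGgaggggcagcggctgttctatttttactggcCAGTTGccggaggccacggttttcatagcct
Chrna1, chr2:73580339-73580588, - strand: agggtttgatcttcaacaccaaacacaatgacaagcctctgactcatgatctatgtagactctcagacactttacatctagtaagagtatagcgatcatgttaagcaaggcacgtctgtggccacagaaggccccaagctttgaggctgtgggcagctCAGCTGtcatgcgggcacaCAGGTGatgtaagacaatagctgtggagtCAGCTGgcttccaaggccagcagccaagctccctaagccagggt
Myog had 2 matches, CACATG and, beginning 12 bases before the start, CAGTTG. Mylpf had 1 match, CAGCTG at 51 bases. Tnni1 had 4, of which CAGCTG lay 68 bases before the start, and Chrna1 had 3, of which CAGCTG lay at 92 and at 44 bases. Among 32851 mouse promoter windows of the same length, 66.2% held CANNTG and 13.0% held CAGCTG. The MEF2 site was searched on both strands as the strict pattern YTAWWWWTAR. In it Y is C or T, W is A or T and R is A or G. This pattern had no match in the 4 windows and occurred in 2.92% of all windows. CTATATTTAT in the Myog window and CTATTTTTAC in that of Tnni1 differ from it in the last base only. A looser pattern would have matched them, so the windows cannot be said to lack a MEF2 site. These matches describe letters only.

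Myog was the panel gene found in most myocytes. In the order of days it read 1645, 3333 and 2444 CPM in the 10x sums and 4034, 7098 and 6905 CPM in those of Smart-seq2. At least 1 count was present in 98.1%, 100% and 91.7% of 10x myocytes, and in 13 of 15, 34 of 34 and 23 of 23 on Smart-seq2. Muscle progenitors, meaning cells led by the panel of Msc, Cdh15, Myf5 and Capn6 at 0.7 or more, held Myog too. A count was found in 16.2%, 29.4% and 11.5% of them on 10x and in 40.9%, 31.5% and 34.9% on Smart-seq2. For comparison, a Myog count was found in 4.37% of the neurons of the E12.5 10x pool (18 cells, median 3074.5 UMIs) and in 4.88% of those of the E14.5 Smart-seq2 pool (6 cells, median 695075 counts). The E12.5 myocyte sum of Myog was the lowest of the 3 days on each platform.

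The contractile and receptor genes of the panel differed in how they were spread. Mylpf read 1323, 1366 and 1416 CPM on 10x and 424.2, 276.8 and 575 CPM on Smart-seq2. Tnni1 read 800.4, 1270 and 857 CPM on 10x and 789, 1503 and 1711 CPM on Smart-seq2. Chrna1 read 195.4, 291.2 and 216.99 CPM on 10x and 806, 1173 and 1346 CPM on Smart-seq2. Single Smart-seq2 myocytes showed the difference in spread most plainly. At E16.5, Myog ran from 3907 CPM in the lowest cell over a median of 7338 to 10762 CPM in the highest of 23 cells. Mylpf ran from 0 over a median of 44.1 to 3529 CPM in the same cells, and the highest cell alone held 33.4% of its summed level. Mylpf thus had counts in 12 of 15, 27 of 34 and 18 of 23 Smart-seq2 myocytes and Chrna1 in 14 of 15, 34 of 34 and 23 of 23.

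**Figure D1:**
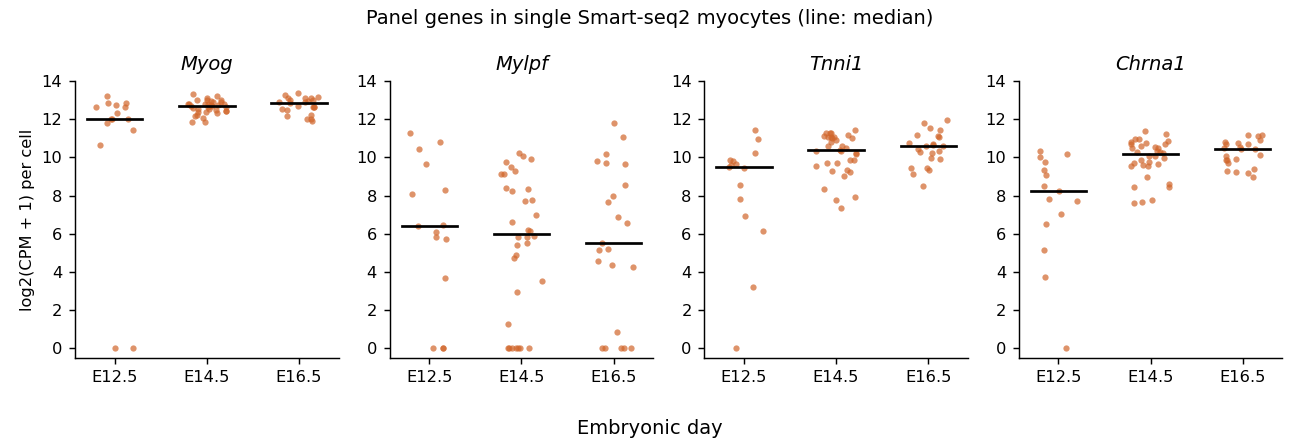
Levels of the 4 panel genes in single Smart-seq2 myocytes, as log2(CPM + 1) on the vertical axis, by harvest day; each point is a cell and each line a median (15, 34 and 23 cells). Myog lay in a narrow band at E14.5 and E16.5, whereas Mylpf spread from 0 to 3529 CPM at E16.5.

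Most cells were far from the threshold. The lowest-scoring myocytes stood at 0.721 and 0.758 and the highest cell led by the panel but not called stood at 0.653. Median scores were 1.78, 2.96 and 1.91 on 10x and 2.70, 3.68 and 3.70 on Smart-seq2, and 7 myocytes led their next panel by under 0.1. On 10x, 40 myocytes were called from a single panel gene, against 1 on Smart-seq2. The panel of muscle progenitors (Msc, Cdh15, Myf5 and Capn6) also reached 0.7 in 59.3% of the myocytes, including all 72 Smart-seq2 cells. A panel of a non-muscle class reached 0.7 in 37 myocytes, most often the brown adipocyte panel (14 cells), which contains Car3. No doublet caller was run, and results without these 37 cells are given with the processing alternatives.

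The myocyte sums also held sarcomere genes outside the panel. Embryonic myosin heavy chain Myh3 read 327.7, 175.2 and 274.1 CPM on 10x and 1138, 762 and 263.2 CPM on Smart-seq2, and skeletal actin Acta1 read 693, 470.1 and 628 CPM and 660.2, 147.6 and 1417 CPM. Titin (Ttn) read 1021, 643 and 571 CPM on 10x and 3307, 2026 and 1402 CPM on Smart-seq2. At E16.5 a Myh3 count was found in 5 of 48 10x myocytes and 16 of 23 Smart-seq2 myocytes. Acta1 was found in 8 and 15 of these cells and Ttn in 15 and 23. Of the 48 cells on 10x, 17 were called from a single panel gene, so the sums need not hold for each cell. The myogenic factor Myf6, which mature fibres make, had no count in any of the 6 myocyte sums. Pax7 itself was low, at 50.4, 4.94 and 22.8 CPM on 10x and 1.79, 0.413 and 0.0498 CPM on Smart-seq2. Markers of erythroid, immune and endothelial cells summed to 44.1, 120.9 and 11.4 CPM on 10x and 147.2, 71.4 and 51.1 CPM on Smart-seq2.

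The share of myocytes among all kept cells was highest at E14.5 on each platform. Myocytes made up 5.21% (95% exact binomial interval 3.93 to 6.76), 11.6% (9.66 to 13.8) and 5.11% (3.79 to 6.71) of the kept 10x cells in the order of days. On Smart-seq2 they made up 4.78% (2.70 to 7.76), 10.4% (7.33 to 14.3) and 7.90% (5.08 to 11.6). The E14.5 interval stood clear of both others on 10x and overlapped them on Smart-seq2. Among muscle cells alone, meaning myocytes plus the muscle progenitors called by their own panel (11.6% of kept cells), the platforms did not give the same order of days. The 10x share was 58.9% (48.02 to 69.2), 42.3% (36.2 to 48.5) and 33.3% (25.7 to 41.7), and the Smart-seq2 share was 25.4% (14.98 to 38.4), 38.6% (28.4 to 49.6) and 26.7% (17.8 to 37.4). The intervals cover counting error only, and the E14.5 10x library was also the deepest. Cells of a day and platform came from pooled embryos, and how many embryo pools they came from is not stated. The shares of all cells also depend on how many neurons and mesenchymal cells the sort took in.

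**Figure D2:**
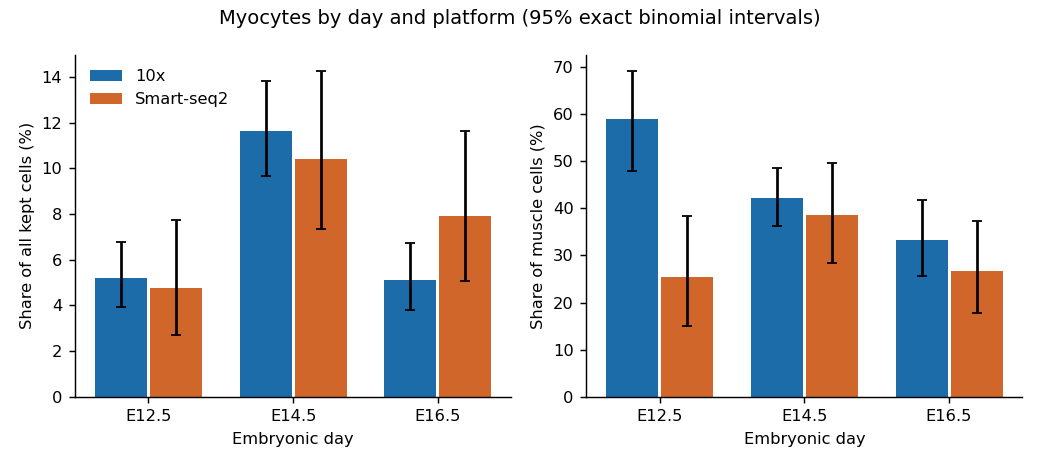
Bars give the share of myocytes, in percent, among all kept cells and among muscle cells (myocytes plus muscle progenitors) by harvest day and platform; error bars are 95% exact binomial intervals for 1 pool each. Of all kept cells, E14.5 had the highest share on each platform, 11.6% and 10.4%.

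Compared with the muscle progenitors of the same libraries, myocytes had more transcript of the contractile apparatus and less of DNA replication genes. Since the panels chose both classes, these ratios are a description without a test. Of 2415 genes with at least 10 counts over both classes in every pool, 56 (2.32%) were more than 2-fold higher in myocytes in all 6 pools (log2 ratio past 1, after adding 1 CPM) and 24 (0.994%) more than 2-fold lower. The 10 genes with the highest smallest ratio were Tnni1, Acta1, Mylpf, Myh3, Myl1, Klhl41, Tnnc1, Srl, Chrna1 and Tnnt2, of which Tnni1, Mylpf and Chrna1 are panel genes. The 10 lowest, with the progenitor panel gene Myf5 first, were Myf5, Kcne1l, Peg10, Id2, Phgdh, Gpc3, Fn1, Nfia, Dtl and Tyms.

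Sarcomere genes were among the higher group. Without the panel genes, 11 of 14 thin-filament genes with enough counts were past 2-fold in all pools, with a median log2 ratio of 3.16 against -0.07 over all genes compared. All 3 thick-filament genes with enough counts outside the panel were past 2-fold, and their median log2 ratio was 6.02. Cardiac troponin T (Tnnt2), which embryonic skeletal muscle also makes, read 428.5, 1134 and 994 CPM in 10x myocytes and 676, 1150 and 1280 CPM in those of Smart-seq2. In progenitors Tnnt2 read 10.5, 20.99 and 93.8 CPM on 10x and 25.8, 30.1 and 74.1 CPM on Smart-seq2, so no progenitor sum reached a myocyte sum. Klhl41, a kelch protein of the sarcomere, read 138.6, 177.7 and 125.6 CPM in 10x myocytes against 0, 0.807 and 5.86 CPM in progenitors. Sarcalumenin (Srl), a calcium-binding protein of the sarcoplasmic reticulum, read 271.7, 454.8 and 660.1 CPM in Smart-seq2 myocytes against 18.7, 28.7 and 23.6 CPM in progenitors.

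Myf5, Id2 and Phgdh were among the lower genes. Myf5 read 18.9, 1.23 and 0 CPM in 10x myocytes against 242.6, 129.2 and 111.3 CPM in progenitors, and 22.5, 2.27 and 2.64 CPM against 254.6, 143.5 and 300.1 CPM on Smart-seq2. Id2, an inhibitor of helix-loop-helix factors, read 163.9, 102.4 and 22.8 CPM against 516.9, 377.1 and 134.8 CPM on 10x. Phgdh, the first enzyme of serine synthesis, read 23.4, 19.04 and 30.04 CPM in Smart-seq2 myocytes against 420.5, 723 and 472.9 CPM in progenitors. All 13 S-phase genes with enough counts were lower in myocytes in every pool (median log2 ratio -2.06), as were 13 of 14 genes of the G2 and M phases (median -1.31). Of the S-phase genes, 2 (Dtl and Tyms) were past 2-fold in all pools.

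**Figure D3:**
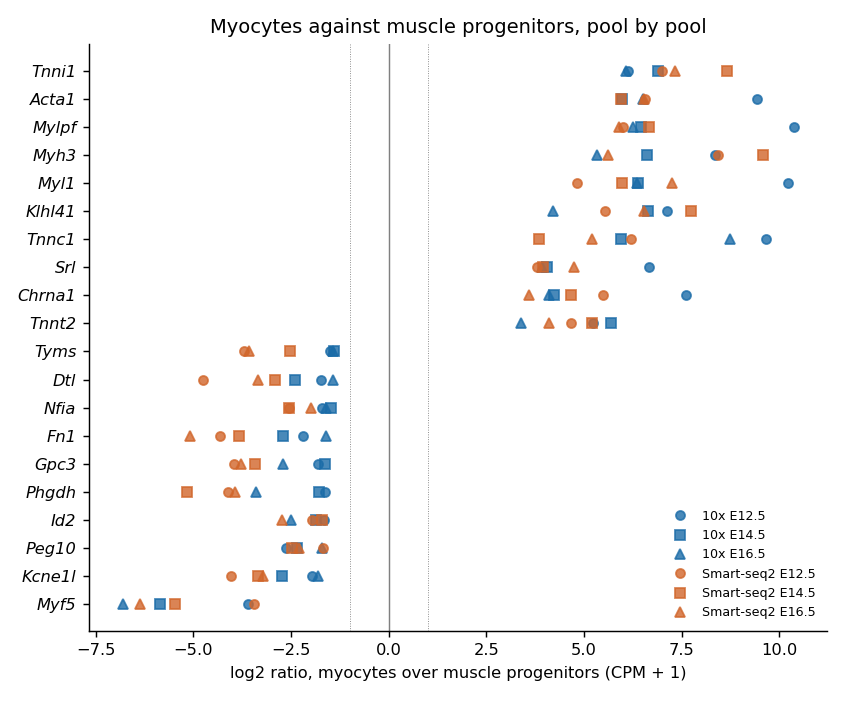
Log2 ratio of CPM (plus 1) in myocytes to muscle progenitors for the 10 highest and 10 lowest genes, 1 point per pool; dotted lines mark 2-fold. Each gene lies past the same dotted line in all 6 pools, and Tnnt2, the last of the higher genes, has its lowest pool at 3.39.

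Cell-cycle exit and fusion genes also marked the class. The cyclin-dependent kinase inhibitor p21 (Cdkn1a) read 555, 749 and 354.04 CPM in 10x myocytes against 10.5, 38.8 and 70.3 CPM in progenitors, and 1091, 455.6 and 799 CPM against 28.4, 15.4 and 104.4 CPM on Smart-seq2. The p57 inhibitor Cdkn1c read 4758, 11632 and 6510 CPM in 10x myocytes against 2321, 5836 and 3738 CPM. Of the 6 cell-cycle exit genes with enough counts, 2 were past 2-fold in all pools and the median log2 ratio was 1.22. Mymk read 157.6, 213.5 and 148.5 CPM in 10x myocytes and 831, 1069.98 and 857 CPM in those of Smart-seq2, against at most 90.5 CPM in a progenitor sum. Mymx read 201.7, 697 and 468.2 CPM on 10x and 399.2, 602 and 696 CPM on Smart-seq2, against at most 46.9 CPM in progenitors. The cadherin Cdh15 is a progenitor panel gene, yet it read 1329, 1872 and 1595 CPM in Smart-seq2 myocytes against 406.5, 715 and 745 CPM in progenitors.

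Most Smart-seq2 myocytes held transcripts of both membrane fusion proteins. Mymk and Mymx were found together in 11 of 15, 34 of 34 and 23 of 23 Smart-seq2 myocytes and in 18.9%, 58% and 14.6% of 10x myocytes. After thinning of 10x cells to 1000 UMIs, Mymk alone was found in 18.9%, 19.6% and 11.4% of them, against 33.96%, 64.3% and 27.1% at full depth. No Smart-seq2 neuron had a Mymk count (0 of 99 at E12.5, for which 3 cells of the total would be 3.03%, 0% at E14.5, for which they would be 2.44%, and 0 of 8 at E16.5), and 4 E12.5 10x neurons had one (0.971%). Across cells, Spearman's rho between Mymk and Mymx was 0.07, 0.60 and 0.60 on Smart-seq2 (n = 15, 34 and 23 cells). Some myocytes kept proliferation transcripts. Mki67 and Top2a were found together in 3, 12 and 2 cells on 10x (5.66%, 10.7% and 4.17%). On Smart-seq2 they were in 2, 7 and 3 cells (13.3%, 20.6% and 13.0%). A Top2a count, with or without Mki67, was present in 30.2%, 25.9% and 18.75% of 10x myocytes. On Smart-seq2 it was present in 33.3%, 44.1% and 30.4%. Of the 12 Smart-seq2 cells with both genes, 9 also had Myh3 (1, 6 and 2), and on 10x 1, 0 and 1 of the cells did. The summed level of G2 and M phase genes against that of sarcomere genes gave rho of -0.36, -0.25 and -0.51. Cells of a day share plates and vary in depth, and depth against the sarcomere sum gave rho of 0.24, 0.14 and -0.10, so these values are descriptive.

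Between E12.5 and E16.5 the myocyte transcriptome differed at 4.58% of 10848 tested genes in an edgeR quasi-likelihood fit with platform as a term (adjusted p under 0.05). Of the genes tested, 2.38% rose and 2.2% fell, and 3.36% were called and moved the same way on each platform. DESeq2 also called 2.1%, and limma with DESeq2 called 22 genes (0.203%), 14 that rose and 8 that fell. The calls leaned on 2 small sums. Without the E12.5 Smart-seq2 sum, 5 genes were called, and without that of E16.5, 22. Genes that all 3 tools called are described next, a choice made after their values were seen.

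The largest fall among them was that of Nnat (neuronatin), an imprinted gene for a small membrane proteolipid. Nnat read 832, 215.9 and 22.8 CPM on 10x and 1117, 124.1 and 24.1 CPM on Smart-seq2, lower at each later day on each platform. Single Smart-seq2 myocytes ran from 203.7 to 2317 CPM at E12.5, 0 to 780.5 at E14.5 and 0 to 202.9 at E16.5. Cells of neighbouring days thus overlapped. From E12.5 to E16.5 Nnat fell by 5.10 ± 0.56 on the log2 scale (standard error here and below, n = 6 sums in the fit, edgeR adjusted p = 8.36e-16, limma adjusted p = 7.39e-05). Without the E12.5 Smart-seq2 sum it still fell by 4.39 (edgeR adjusted p = 9.83e-05). A count was present in 15 of 15, 19 of 34 and 10 of 23 Smart-seq2 myocytes, while 100%, 98.1% and 92.1% of the progenitors of the same pools had one. After thinning of 10x cells to 1000 UMIs, 52.8%, 14.3% and 2.27% of myocytes had a count. Nnat is also a gene of neurons, of which 90.3% had a count at E12.5 on 10x. The summed neuron panel (Tubb3, Elavl3, Dcx and Rtn1) in myocytes was 132.3, 46.9 and 11.4 CPM on 10x and 17.9, 19.8 and 5.13 CPM on Smart-seq2, and its part in the Nnat values was not tested. On Smart-seq2 Nnat and the sarcomere sum gave rho of -0.66, -0.28 and -0.42 across myocytes.

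Several other genes fell stepwise. Kremen2, a receptor for Dickkopf inhibitors of Wnt signalling, read 138.6, 38.3 and 11.4 CPM on 10x and 632, 149.3 and 33.03 CPM on Smart-seq2 and fell by 3.91 ± 0.65 (log2, edgeR adjusted p = 6.05e-07). Calponin 2 (Cnn2), an actin-binding protein, read 126.04, 49.4 and 22.8 CPM and 394.6, 110.5 and 14.2 CPM and fell by 4.16 ± 0.70 (adjusted p = 8.65e-07). For both of these the days kept the same order on each platform. The Golgi-associated Glipr2 read 189.1, 54.3 and 34.3 CPM and 599, 82.8 and 19.7 CPM and fell by 4.13 ± 0.65 (adjusted p = 1.11e-07). Brain-type creatine kinase Ckb read 315.1, 146.8 and 57.1 CPM and 1614, 647 and 337.8 CPM and fell by 2.09 ± 0.48 (adjusted p = 0.00116). Chd3, a chromatin remodeller of the NuRD complex, and Lrrn1 were also among them, with falls of 2.69 ± 0.59 (adjusted p = 0.000503) and 2.27 ± 0.54 (adjusted p = 0.00173).

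Genes with a role in muscle fibres were among the 14 that rose. Fast skeletal troponin I (Tnni2) read 50.4, 233.2 and 491.1 CPM on 10x and 7.16, 68.6 and 191.4 CPM on Smart-seq2, in the order of days on each platform. It rose by 4.37 ± 0.58 (log2, edgeR adjusted p = 8.53e-11), and it had a count in 5 of 15, 22 of 34 and 19 of 23 Smart-seq2 myocytes against 0 of 99, 1 (0.813%) and 0 of 8 neurons. Jsrp1, a junctional protein of the sarcoplasmic reticulum, read 31.5, 113.5 and 148.5 CPM and 4.63, 72.6 and 100.9 CPM and rose by 3.92 ± 0.70 (adjusted p = 5.54e-06). Dok7, which activates the receptor kinase MuSK at the neuromuscular junction, read 0, 60.5 and 102.8 CPM and 98.2, 511.7 and 552 CPM and rose by 3.01 ± 0.58 (adjusted p = 3.96e-05). The E12.5 value was the lowest in each of these genes on each platform. Cryab, a small heat shock chaperone of the Z disc, read 302.5, 808 and 857 CPM and 74.4, 424.4 and 692 CPM and rose by 2.61 ± 0.46 (adjusted p = 3.41e-06). Dmpk, the kinase affected in myotonic dystrophy, read 25.2, 83.9 and 182.7 CPM and 101.6, 575 and 431.5 CPM and rose by 2.55 ± 0.56 (adjusted p = 0.000465). Progenitors of the Smart-seq2 pools also held some of these transcripts in more cells on later days. Tnni2 had a count in 11.4%, 29.6% and 49.2% of them, Cryab in 4.55%, 74.1% and 96.8% and Dok7 in 4.55%, 27.8% and 36.5%. Depth differed between days there too, and such rises were not seen in myocytes alone.

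Other genes that rose have no sarcomere role. Dlk1, an imprinted relative of Notch ligands, read 327.7, 684 and 1850.1 CPM on 10x and 7.05, 135.2 and 143.98 CPM on Smart-seq2 and rose by 3.45 ± 0.47 (log2, edgeR adjusted p = 3.58e-10). Rtl3, a retrotransposon-derived Gag-like gene, read 0, 24.7 and 91.4 CPM and 2.42, 152.8 and 189.1 CPM and rose by 6.72 ± 0.89 (adjusted p = 7.92e-11). Cck, the gene of the peptide cholecystokinin, read 18.9, 185.1 and 148.5 CPM and 7.47, 73.7 and 217.6 CPM and rose by 4.50 ± 0.65 (adjusted p = 3.18e-09). In each, both later days lay above E12.5 on each platform, though 1 of 15 Smart-seq2 myocytes held all of the Rtl3 counts at E12.5. Lamin A/C (Lmna) read 88.2, 365.3 and 468.2 CPM and 428.5, 1462 and 1831 CPM and rose by 2.37 ± 0.45 (adjusted p = 1.98e-05). The caveolar Cavin1, the tetraspanin Cd63, the small calcium-binding proteins S100a10 and S100a16 and the inducible chaperone Hspa1a completed the 14, with log2 rises of 3.29 ± 0.67, 2.15 ± 0.43, 2.57 ± 0.53, 2.81 ± 0.52 and 2.89 ± 0.64. Hspa1a has a near-identical copy, Hspa1b, so reads could be split between them.

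**Figure D4:**
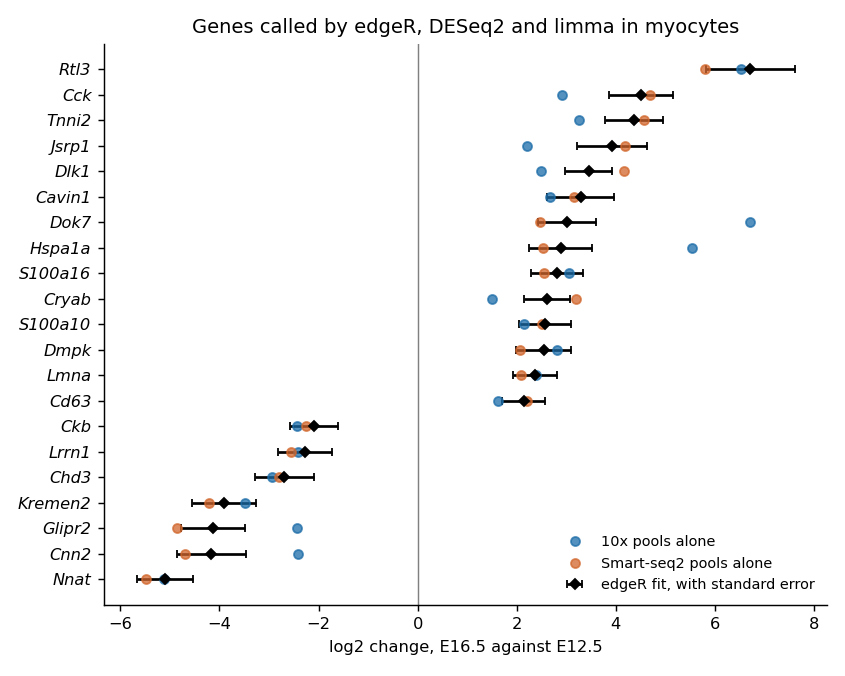
Log2 change from E12.5 to E16.5 in myocytes for 21 of the 22 genes called by edgeR, DESeq2 and limma; points give 10x alone and Smart-seq2 alone, and bars the edgeR estimate with its standard error over both. Nnat has the most negative estimate (-5.10) and Rtl3 the most positive (6.72), and both platforms move the same way for every gene shown.

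Lists of related genes are counted here without the panel genes. Of 12 fast and perinatal fibre genes tested, 4 rose (Myh8, Tnnc2, Tnni2 and Tnnt3) and 1 fell (Actn3), where 2.38% of all genes tested rose and 2.2% fell. DESeq2 called 5 of the 12, and their median log2 change was 0.25 against 0.00 over all genes. Perinatal myosin Myh8 read 37.8, 55.5 and 91.4 CPM on 10x and 11.9, 222.2 and 200.4 CPM on Smart-seq2 (3.41 ± 0.71, edgeR adjusted p = 0.000175). On 10x, Myh8 had a count in 3 of 53 myocytes at E12.5 and in 2 of 48 at E16.5. Fast troponin T (Tnnt3) read 88.2, 148.1 and 251.3 CPM and 3.58, 33.7 and 64.6 CPM (3.16 ± 0.62, adjusted p = 5.41e-05), and fast troponin C (Tnnc2) 422.2, 509.6 and 559.6 CPM and 6.95, 33.2 and 99.04 CPM (2.40 ± 0.51, adjusted p = 0.000297). The E12.5 sums were lowest for all 3 on each platform. Alpha-actinin 3 (Actn3) read 18.9, 18.5 and 0 CPM and 184.8, 29.4 and 0.697 CPM and fell by 7.43 ± 1.10 (adjusted p = 1.03e-08). Among 9 slow fibre genes, Csrp3 alone passed the test and rose, and the median was -0.08. No sarcomere gene of these lists was called without the E12.5 Smart-seq2 sum.

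Other groups had calls in both directions, to be read beside the 4.58% of all genes that were called. Of 20 fusion genes, Cav3, Cd9 and the laminin receptor subunit Itga7 rose and Ncam1 fell (median 0.42), while Mymk and Mymx did not pass the test. Itga7 read 12.6, 16.04 and 22.8 CPM on 10x and 6.63, 72.5 and 232.8 CPM on Smart-seq2 and rose by 4.68 ± 0.86 (edgeR adjusted p = 1.21e-05). Its E12.5 and E16.5 10x values lay under the level of 3 counts in those sums (18.9 and 34.3 CPM), so the rise rested on Smart-seq2. Of 16 energy genes, Ckm and Cox8b rose and Ckb fell. Muscle creatine kinase (Ckm) read 0, 7.40 and 22.8 CPM and 3.16, 2.83 and 108.5 CPM (4.95 ± 1.00, adjusted p = 0.000103), and 2 UMIs made up its E16.5 10x value, whereas its brain-type relative fell as given above. Of 12 neuromuscular junction genes, Dok7 and Utrn rose and Erbb3, a neuregulin receptor, fell. Of 18 Notch pathway genes, Dlk1 rose and Hes1 and Notch3 fell (median -0.59), and of 17 growth factor genes, Fst, Erbb3 and Tgfb2 fell.

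The myogenic factors themselves gave no call, which does not show that their levels stayed the same. On simulated sums the same edgeR fit called 35.5% of genes raised or lowered 8-fold. None of 22 tested members outside the panels passed in edgeR, nor in DESeq2 or limma. In edgeR 5 of them had an unadjusted p under 0.05, beside 16.2% of all genes. Myod1 read 365.5, 393.6 and 205.6 CPM on 10x and 1202, 596 and 819 CPM on Smart-seq2. Mef2c, a cofactor of Myog, read 781, 521.98 and 331.2 CPM and 669.9, 137.8 and 219.6 CPM. Of 22 S-phase and 22 G2 and M phase genes none was called by edgeR (3 of each at an unadjusted p under 0.05) or by DESeq2.

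Genes of the dissociation response rose with the day. Of 12 such genes 7 rose (Atf3, Dusp1, Egr1, Fos, Hspa1a, Jun and Junb), where 2.38% of all genes tested rose, with a median log2 change of 2.24 against 0.00 over all genes, and DESeq2 called 5 of the 12. Their summed level in myocytes was 876, 1022 and 1348 CPM on 10x and 599, 1538 and 3170.4 CPM on Smart-seq2. In progenitors it was 1202, 1764 and 2268 CPM on 10x and 1427, 3568 and 7300.3 CPM on Smart-seq2, so each class of cells had its highest sum at E16.5. Between E14.5 and E16.5, which shared the digestion, edgeR called none of the 12 and DESeq2 called 1, beside 0.166% of all genes. In edgeR 4 had an unadjusted p under 0.05, and the median log2 change was 0.86 against -0.17 over all genes. The part of digestion in the comparisons with E12.5 was not tested.

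The largest fitted changes belonged to genes without a count on one of the days. Of the 8 largest rises and 8 largest falls called with the same sign on each platform, all 16 were at 0 in both sums of E12.5 or of E16.5. A ratio to the level of 3 counts in the sum at 0 is therefore given. It covers counting error only, and Smart-seq2 counts are not UMIs, so it is no lower bound of the change. The kinase Sgk1 read 0, 22.2 and 11.4 CPM on 10x and 0, 4.64 and 256.97 CPM on Smart-seq2. Its E16.5 Smart-seq2 value was 814-fold the level of 3 counts in the E12.5 sum. Its 10x E16.5 value was 1 UMI and lay under that level on 10x (18.9 CPM). Serpinb1a, Marveld2, Endod1, Smim5, Tppp and Col15a1 were among the other rises. The cell adhesion gene Cadm1 read 50.4, 8.64 and 0 CPM and 118.7, 1.56 and 0 CPM, and DESeq2 called it too (adjusted p = 3.08e-06). Its E12.5 Smart-seq2 value was 795-fold the level of 3 counts in the E16.5 sum. Fstl4, Kif1a, a motor of neuronal transport, Gm12258, Rfx5, Stra6 and Shd were among the other falls.

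Besides Nnat, 4 genes were called both with all sums and without the E12.5 Smart-seq2 sum (5 in all, 0.0461%), and they were singled out after their values were seen. Follistatin (Fst), which binds activin and myostatin, read 258.4, 1.23 and 0 CPM on 10x and 17.7, 0.207 and 0.0996 CPM on Smart-seq2 and fell by 7.37 ± 1.18 (log2, edgeR adjusted p = 1.92e-07, 0.00207 without that sum). The metal-binding Mt1 read 6.30, 109.8 and 308.4 CPM and 0, 4.55 and 25.6 CPM and rose by 8.00 ± 0.99 (adjusted p = 2.08e-12, 0.00549 without). Both had E12.5 apart from the later days on each platform, and 1 cell held 66.9% of the summed Fst level of the E12.5 Smart-seq2 myocytes. Igfbp5, which binds insulin-like growth factors, read 182.8, 11.1 and 45.7 CPM and 71.8, 7.79 and 0.0996 CPM (adjusted p = 5.6e-06, 0.0494 without, 0.0632 in DESeq2). The adhesion gene Sdk1 was at 0 in both E16.5 sums and read 18.9 and 3.70 CPM on 10x and 3.16 and 31.9 CPM on Smart-seq2 at E12.5 and E14.5.

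From E12.5 to E14.5, 1.79% of the genes passed in edgeR, 1.32% with a rise and 51 genes (0.47%) with a fall, and 1.63% were called and moved the same way on each platform. DESeq2 gave 48 rises and 36 falls, and 75 genes were called by both tools (0.691%). Without the E12.5 Smart-seq2 sum 1 gene remained, Fst, which fell by 6.58 ± 0.94 (log2, edgeR adjusted p = 1.25e-08). Several of the genes described above also rose between these days. Tnni2 rose by 3.12 ± 0.56 (adjusted p = 1.9e-05), Cryab by 2.22 ± 0.44 (adjusted p = 0.000192), Jsrp1 by 3.48 ± 0.68 (adjusted p = 0.000119), Dok7 by 2.73 ± 0.56 (adjusted p = 0.000401) and Dlk1 by 2.88 ± 0.47 (adjusted p = 2.27e-06). S100a16, the only gene called by limma as well (1 gene, 0.00922%), read 25.2 and 255.4 CPM on 10x and 84.8 and 421.5 CPM on Smart-seq2 and rose by 2.89 ± 0.52 (adjusted p = 2.27e-05).

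Outside the panels none of 22 myogenic factors was called between E12.5 and E14.5 by edgeR, with 6 at an unadjusted p under 0.05, or by DESeq2. Of 22 S-phase genes Mcm2 rose in edgeR, and of 22 G2 and M phase genes Ccna2 and Tpx2 rose, beside 1.32% of all genes. DESeq2 called none of these. The 16 genes with the largest changes were again mostly at 0 on a day, all 8 rises (Slc31a2, Otogl, Smim5, Marveld2, Cth, Haus3 and Endod1 among them) and 5 of 8 falls (Shd, Zfp493, Hpgd, Ddit4l, Pcsk6, Arid3b, Stra6 and Gjd4).

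Between E14.5 and E16.5 fewer genes were called than in either comparison with E12.5 when all sums entered the fit. EdgeR called 59 genes (0.544%), 13 that rose (0.12%) and 46 that fell (0.424%), while DESeq2 gave 8 rises and 10 falls and limma none (543 at an unadjusted p under 0.05). Both edgeR and DESeq2 called 13 genes (0.12%), 4 rises and 9 falls. Nnat fell by a further 2.79 ± 0.54 (log2). The order of the day comparisons did not hold without the E12.5 Smart-seq2 sum. In that fit 28 genes were called between E14.5 and E16.5, more than in either comparison with E12.5. Without the E14.5 or the E16.5 Smart-seq2 sum, 5 genes were called. Of the sarcomere genes, Acta1 rose by 1.74 ± 0.46 (edgeR adjusted p = 0.0302), but its 10x values of 470.1 and 628 CPM lay close to the 693 CPM of E12.5, and on Smart-seq2 it read 660.2, 147.6 and 1417 CPM. A single cell of 23 held 40.3% of the E16.5 Smart-seq2 level of Acta1 (10329 CPM, median 53.9), and DESeq2 (adjusted p = 0.359), limma (0.923) and edgeR at equal depth (0.416) did not call it. Csrp3 rose and Myl6b and Actn3 fell, which DESeq2 also called. Ckm rose in edgeR and was not called by DESeq2 (adjusted p = 0.310).

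The 8 largest rises that had the same sign on each platform included 3 collagen genes. Col1a1, the chain of fibrillar collagen I, read 75.6, 27.1 and 559.6 CPM on 10x and 0.632, 0.266 and 3.14 CPM on Smart-seq2 and rose by 3.85 ± 0.62 between E14.5 and E16.5 (log2, edgeR adjusted p = 7.58e-06, DESeq2 adjusted p = 3.17e-10). Col6a2 read 6.30, 11.1 and 171.3 CPM and 7.16, 0.118 and 13.4 CPM (4.77 ± 1.09, adjusted p = 0.00599), and Col6a1 rose too (adjusted p = 0.0356, 0.571 in DESeq2). With at least 2 panel genes required of each myocyte, none of the 3 was called (edgeR adjusted p = 0.0868 for Col1a1, 0.183 for Col6a2 and 0.320 for Col6a1). At equal depth Col1a1 (0.295) and Col6a2 (0.231) were not called either, and limma called none of them (0.923 for each). Each was highest at E16.5 on 10x, and the summed late mesenchymal panel (Ogn, Aspn, Postn and Igf1) in myocytes was 37.8, 75.3 and 114.2 CPM on 10x and 40.8, 68.3 and 121.3 CPM on Smart-seq2. Its part in the collagen values was not tested. The metallothionein Mt2 read 12.6, 45.7 and 228.4 CPM and 0, 0.354 and 9.96 CPM (3.55 ± 0.81, adjusted p = 0.00586). Dnajc27, Csrp3, Ckm and the chaperone Hspb8 completed the 8 largest rises. The 8 largest falls (Zfp184, Pla2g15, Slc19a2, Sdk1, Asic4, Ephb6 and Rfx5 among them) had no count in either E16.5 sum.

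Whether the change with the day differed between myocytes and muscle progenitors of the same libraries was tested by a class-by-day term. Of 12285 genes, edgeR called 3.79%, 1.34% with a more positive change in myocytes and 2.44% with a more negative one, and 2.67% were called with the same sign on each platform. DESeq2 called 60 of these genes as well (0.488%), and limma called none (1059 at an unadjusted p under 0.05). Without the E12.5 Smart-seq2 pool 51 genes were called, 31 of them among those called with all pools (0.252%). The genes described next are those that DESeq2 also called.

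Nnat read lower at each later day in both classes, and its change was larger in myocytes. In progenitors it read 1013, 338.3 and 111.3 CPM on 10x and 1394, 490.1 and 303.5 CPM on Smart-seq2, and its change in myocytes was lower by 3.41 ± 0.36 (log2, edgeR adjusted p = 7.79e-18). The actin-binding Tagln went apart, at 56.7, 39.5 and 0 CPM in 10x myocytes and 38.2, 2.36 and 2.44 CPM in those of Smart-seq2 but 42.2, 273.7 and 246.1 CPM and 21.1, 90.8 and 214.9 CPM in progenitors (-7.41 ± 0.67, adjusted p = 6.07e-25). At E12.5 the classes were close in Tagln, and at the later days every progenitor sum lay above every myocyte sum. Pdlim4, an actin-associated LIM protein, read 214.3, 139.4 and 57.1 CPM and 318.2, 107.5 and 123.5 CPM in myocytes against 94.9, 190.6 and 216.8 CPM and 139.6, 244.1 and 431.8 CPM in progenitors (-3.17 ± 0.44, adjusted p = 6.98e-10). Its order between the classes turned over between E12.5 and E14.5 on each platform. Glipr2 differed by -3.76 ± 0.52 (adjusted p = 5.19e-10).

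On the log2 scale the gap between the classes narrowed for Actc1 and Cdkn1a, while Lgals1 and Vim changed their order. Cardiac actin (Actc1), the main actin of embryonic muscle, read 3504, 3667 and 3632 CPM in 10x myocytes and 13466, 15285 and 15527 CPM in those of Smart-seq2. In progenitors Actc1 read 52.7, 327.8 and 416.03 CPM and 686, 1342 and 2484 CPM, and the change in myocytes was lower by 1.95 ± 0.18 (log2, edgeR adjusted p = 1.38e-22). Progenitor levels thus came nearer while every myocyte sum of a platform stayed above every progenitor sum. Actc1, Acta1 and Acta2 are close in sequence and could share reads. Cdkn1a differed by -2.66 ± 0.39 (adjusted p = 7.32e-09), its progenitor level reading 10.5, 38.8 and 70.3 CPM on 10x. Galectin 1 (Lgals1) read 2086, 3745 and 3312 CPM in 10x myocytes against 918, 3572 and 5004 CPM in progenitors (-1.59 ± 0.19, adjusted p = 2.26e-13). Vimentin (Vim) read 1122, 834 and 1302 CPM against 569.6, 869.7 and 1383 CPM (-1.50 ± 0.25, adjusted p = 6.85e-07). For both the myocyte sum was higher at E12.5 and the progenitor sum at E16.5 on each platform.

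**Figure D5:**
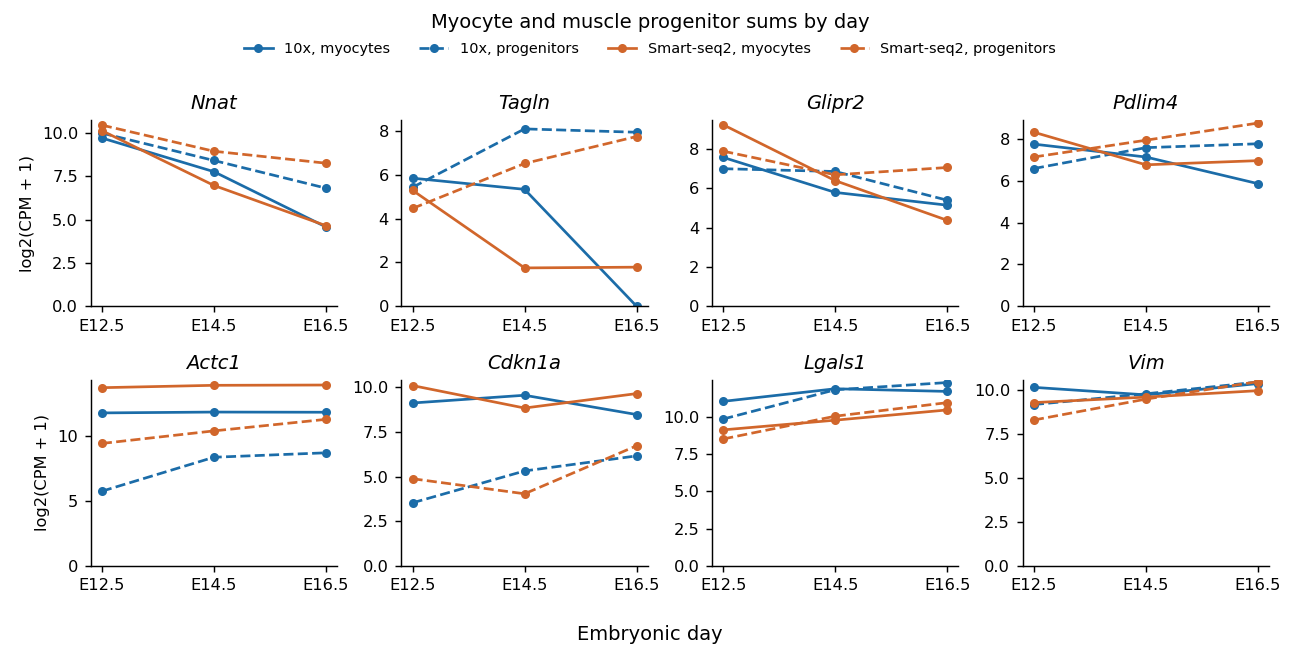
Log2(CPM + 1) of 8 genes by harvest day in myocytes and muscle progenitors, 1 line per class and platform; each point is 1 sum. Tagln, Pdlim4, Lgals1 and Vim change their order between the classes, and Actc1 keeps its order while the gap narrows, with the progenitor sums reaching 416.03 CPM on 10x and 2484 CPM on Smart-seq2 at E16.5.

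By list and without the panel genes, the class-by-day term had 6 thin-filament genes with a more negative change in myocytes (Acta2, Actc1, Klhl40, Neb, Tpm1 and Tpm2) and 1 with a more positive one (Lmod3) of 18, and DESeq2 called 1 of the 18. Over all genes 2.44% were more negative and 1.34% more positive. The median of the list was -0.90 against -0.09 over all genes. Of 22 myogenic factors, Mef2c and Myod1 had a more negative and Eya1 a more positive change, and DESeq2 called none of the 22 (10 at an unadjusted p under 0.05 in edgeR). Myod1 read 158.2, 178.5 and 193.4 CPM in 10x progenitors and 119.5, 338.7 and 600.0 CPM in those of Smart-seq2, against the myocyte values given above. Of 13 cell-cycle exit genes, Btg2, Cdkn1a and Cdkn1c were more negative and Rbl2 more positive. Utrophin (Utrn), which is replaced by dystrophin at the mature fibre membrane, was more positive in myocytes (5.07 ± 1.12, edgeR adjusted p = 0.000603, DESeq2 adjusted p = 0.0189), reading 6.30, 11.1 and 45.7 CPM and 1.37, 18.7 and 42.4 CPM there and 21.1, 13.7 and 23.4 CPM and 68.4, 39.3 and 54.9 CPM in progenitors.

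Bulk libraries of sorted cells that were Pdgfra-/Cd36+ at E16.5 gave the panel genes outside the single-cell data. These were technical duplicates of 24862787 and 32947290 reads, so no spread is given. The columns of other sorted cells could not be matched to samples by name and were not used here. Myog read 0.603 and 1.15 CPM, Mylpf 3.42 and 3.70 CPM, Tnni1 0.523 and 1.12 CPM and Chrna1 9.17 and 6.95 CPM. Cd36, the sort marker, read 1510.0 and 1262 CPM and Pdgfra 6.03 and 8.41 CPM. Myod1 read 0 and 0.212 CPM, Myh3 1.05 and 0.273 CPM, Acta1 2.90 and 2.91 CPM and Ttn 3.50 and 3.79 CPM. In bulk RNA, fewer cells of a type and less RNA per cell cannot be told apart.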

How the data were processed

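Single-cell RNA-seq of YFP+ cells and sorted bulk RNA-seq were used. According to the study's methods, the authors aligned the droplet reads with Cell Ranger. They quantified Smart-seq2 reads with kallisto against Ensembl mouse transcripts, to which the YFP sequence had been added. The sample records name kallisto 0.44.0 and the build mm10. Deposited were UMI counts per cell for 10x and estimated counts per gene for Smart-seq2, which were rounded to whole numbers here after summing. The deposited bulk table holds read counts, of which 2 columns were used and 16 were not. The study removed cells without YFP, above 8% mitochondrial expression or of outlying gene number or depth before integrating its platforms. Some of the 3916 deposited cells read here were still above that mitochondrial limit. The study states more cells than these 3916. Cells above 8% mitochondrial counts were left out. The 3852 kept cells held 285 myocytes, 213 on 10x (53, 112 and 48 in the order of days) and 72 on Smart-seq2, and 447 muscle progenitors.

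The members, gene lists and tests were chosen with earlier results of these data known. Counts were summed over cells of a class, platform and day (at least 10 cells per sum). Genes of both tables were tested with edgeR 4.0.16 (filterByExpr, TMM, quasi-likelihood test, Benjamini-Hochberg adjusted p under 0.05). The day fit had platform and day (6 sums, 2 residual degrees of freedom) and the other fit pool, class and class by day (12 sums, 3 residual degrees of freedom). This replaces the study's cell-level test, in which cells act as replicates. DESeq2 1.42.0, limma 3.58.1 on log2(CPM + 1) and the other alternatives were run beside it. Scripts were tested on simulated data, where the class-by-day fit called unchanged genes more often than its error rate allows. EdgeR called 497 genes for E16.5 against E12.5, 194 for E14.5 against E12.5, 59 for E16.5 against E14.5 and 465 for the class-by-day term. Genes named by rule were the 8 largest rises and 8 largest falls per comparison with the same sign on each platform, the 10 highest and lowest against progenitors, and list members passing the test or defining a list. Shares carry exact 95% binomial intervals, and a share of 0 the limit of 3 counts of the total. Both cover counting error only. No test or list count is given for genes of the 9 panels, whose levels chose the classes. Smart-seq2 does not mark strand, so overlapping antisense genes cannot be told apart. Promoter sequences are from RefSeq, and all 4 panel genes matched. A few genes chosen by these rules are not reported here.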

Additional observations from a re-analysis of the deposited data

Results flagged for a closer look

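The change from E12.5 to E16.5 differed between myocytes and muscle progenitors in edgeR for the following named genes, given as the log2 difference (change in myocytes minus change in progenitors). Among genes that DESeq2 called as well, the difference was -7.41 for Tagln, -3.41 for Nnat, -3.76 for Glipr2, -3.17 for Pdlim4, -1.95 for Actc1, -2.66 for Cdkn1a, -1.59 for Lgals1, -1.50 for Vim, -6.04 for Actn3 and 5.07 for Utrn. Among genes called by edgeR and not by DESeq2, it was -2.56 for Myod1 and -1.60 for Mef2c. The genes with the largest fitted differences had sums at 0, so that their values depend on the fit and are no sizes. They were 16.49 for Crym, 13.93 for Dcaf12l1, -13.28 for Khdrbs3 and -11.99 for Map2, which DESeq2 also called, and 18.24 for Klhl29, 18.19 for Abca1, 17.27 for H2-K1, 14.14 for Car14, 13.27 for Tppp, 13.09 for Itgb1bp2, -20.82 for Tmem184a, -14.05 for Ddit4l, -13.08 for Mpzl3, -13.06 for Aph1b, -12.79 for Mylk and -11.90 for Vav2, which it did not call. Limma called none of these.

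In the sorted Pdgfra-/Cd36+ bulk libraries, which no comparison used, the panel genes were above 0, and no control library was used here. Myog read 0.603 CPM in replicate 1 and 1.15 CPM in replicate 2. Mylpf read 3.42 and 3.70 CPM, Tnni1 0.523 and 1.12 CPM and Chrna1 9.17 and 6.95 CPM.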

How the results depend on the processing

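Calls are given as a percentage of the genes tested for E14.5 against E12.5, E16.5 against E12.5, E16.5 against E14.5 and the class-by-day term, in this order, beside 1.79%, 4.58%, 0.544% and 3.79% as reported. DESeq2 gave 0.774%, 2.3%, 0.166% and 0.611%, limma (added after the data were seen) gave 0.00922%, 0.203%, 0% and 0%, and sums of at least 20 cells gave 0.0108%, 0.0539%, 0.302% and 0.46%. Without the platform term the 3 day comparisons gave 0% each, with 3.61%, 6.3% and 2.57% of genes at an unadjusted p under 0.05. Equal depth gave 0.374% for E16.5 against E14.5, with the other counts within 1.5 times. Leaving out 1 pool in turn gave 0.0108% to 2.97%, 0.0539% to 5.74%, 0.0524% to 0.796% and 0.335% to 7.55%. The lowest came without the E12.5 Smart-seq2 pool (0.0108% and 0.0539%) and without that of E16.5 (0.0524% and 0.335%), and the highest without the E12.5 10x pool (2.97%, 5.74% and 7.55%) and without that of E16.5 (0.796%). Without the E14.5 pool, calls were 0.952%, 2.81%, 0.323% and 1.94% for 10x and 0.201%, 3.0%, 0.053% and 1.8% for Smart-seq2. Fewer sums enter those fits. Other score limits, all deposited cells, no filter on low counts, no cells with a second panel and at least 2 panel genes (added) kept every count within 1.5 times.

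Of 52 genes examined singly for E16.5 against E12.5, 43 kept their call in DESeq2, 22 in limma, 5 without the E12.5 and 12 without the E16.5 Smart-seq2 sum. Of 28 examined for the class-by-day term, 14 kept it in DESeq2, 0 in limma and 7 without the E12.5 Smart-seq2 pool. Dnajc27 (E16.5 against E14.5) turned to -0.43 without the E14.5 Smart-seq2 sum, its range over the pools left out being -0.43 to 10.87. Itgb1bp2 (class by day) turned to -0.20 both without the E12.5 Smart-seq2 pool and with sums of at least 20 cells, its range being -0.20 to 19.86. The cause was not tested. DESeq2's scaling moved the median log2 change of all genes from 0.20 to 0.01, from 0.00 to -0.12, from -0.17 to -0.09 and from -0.09 to 0.01.

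The share of myocytes among muscle cells moved beyond its interval to 70.97% (E12.5 10x, score limit 1.0), 24.4% (E16.5 10x, at least 2 panel genes) and 53.2% and 44% (E14.5 and E16.5 Smart-seq2, no second panel). At the thinned depth 37.4% of the shares of cells with a count moved. Each sum was 1 platform and 1 day of pooled embryos. Depth and the number of cells limit every value of E12.5 on Smart-seq2 and of E16.5 on 10x. No paired analysis was possible because no replicate number pairs pools across days. The class-by-day fit had pool as a term, so classes were compared within each pool.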
